A study of Homo sapiens with 6 samples.

Results

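The genes described here are the Slit, semaphorin and netrin families of guidance cues and their receptors: 3 Slits, 4 Robo receptors, 20 semaphorins, 9 plexins, 2 neuropilins, 2 netrins and 6 netrin receptors. The 46 members were chosen by symbol, with no measured value in the rule, and each matched 1 of the 60617 gene identifiers counted. Earlier results of these data were known when the members were chosen. Shares of members set beside shares of all genes therefore only describe this list. RNA sequencing read them in 6 xenograft tumors of WM983-B, a human melanoma cell line in established use. In 3 tumors the host had received anle138b systemically, a diphenyl-pyrazole small molecule that acts on oligomers of α-synuclein, and 3 tumors were untreated, with no vehicle named. The sources used here give no dose, duration, host strain or host age. The sample titles fell into 2 naming sets that each held both groups. A 4-library set, whose titles carry a month and a year, holds replicates 1 and 2 of each group, and a 2-library set, whose titles begin with "blau", holds replicate 3 of each group. All 6 tumors come from 1 cell line, and nothing in the labels says that they grew in separate animals, so p-values measure only the spread between these libraries.

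Guidance cues tell a moving cell or growing process where to go. Slits are secreted proteins that repel cells through Robo receptors. Semaphorins, secreted or anchored in the membrane, act through plexins, which switch off small GTPases of the Ras family, and most of the secreted class 3 need neuropilins as binding partners. Netrins attract through DCC and neogenin and repel through the UNC5 receptors. The same cues steer the neural crest, the embryonic cell population from which melanocytes arise, and many of them are made by melanoma cells.

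Counts per tumor summed to between 12400782 and 27599159, with both libraries of the 2-library set deeper than the other 4. Levels are given as CPM, counts relative to the library total, with TMM factors applied to the totals. Before those factors 3 counts stand for 0.109 to 0.242 CPM at these depths, a floor that covers counting error only. The melanocyte lineage markers were present in every tumor, with PMEL at 8281 CPM or more and SOX10 at 427.5 CPM or more. Of the lists for other cell types, the T cell gene CD3D had 0 counts in every tumor. How reads from the host animal were handled was not given. In a bulk tumor, fewer cells that express a gene and less RNA per cell cannot be told apart.

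Guidance genes were compared with one another on the scale of CPM per kilobase of exon, since longer genes collect more reads. In the untreated tumors 12 of the 46 members had a mean level above 10 on this scale, 13 lay from 1 to 10 and 21 lay below 1. PLXNA1, a receptor for class 3 semaphorins with neuropilins, stood at 37.5 ± 6.84 CPM per kilobase (SD, n = 3) and PLXNC1, the receptor of SEMA7A, at 34.9 ± 7.87. The transmembrane semaphorins SEMA6A and SEMA5A followed at 30.5 ± 1.05 and 30.3 ± 6.11. These 4 genes were read in the same tumors, and the differences between them were not tested. NRP2, the neuropilin that binds SEMA3F and SEMA3C among others, stood at 23.8 ± 2.30, while NRP1 stood at 0.656 ± 0.325. The main Robo was ROBO1 at 16.6 ± 0.857 CPM per kilobase, against 1.44 ± 0.457 for ROBO2. Neogenin, encoded by NEO1, was the main netrin receptor at 10.4 ± 0.834, and its relative DCC was at 0.0172 ± 0.00122. Slits were low, with SLIT3 at 1.51 ± 0.237, SLIT1 at 0.890 ± 0.416 and SLIT2 at 0.508 ± 0.087.

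**Figure D1:**
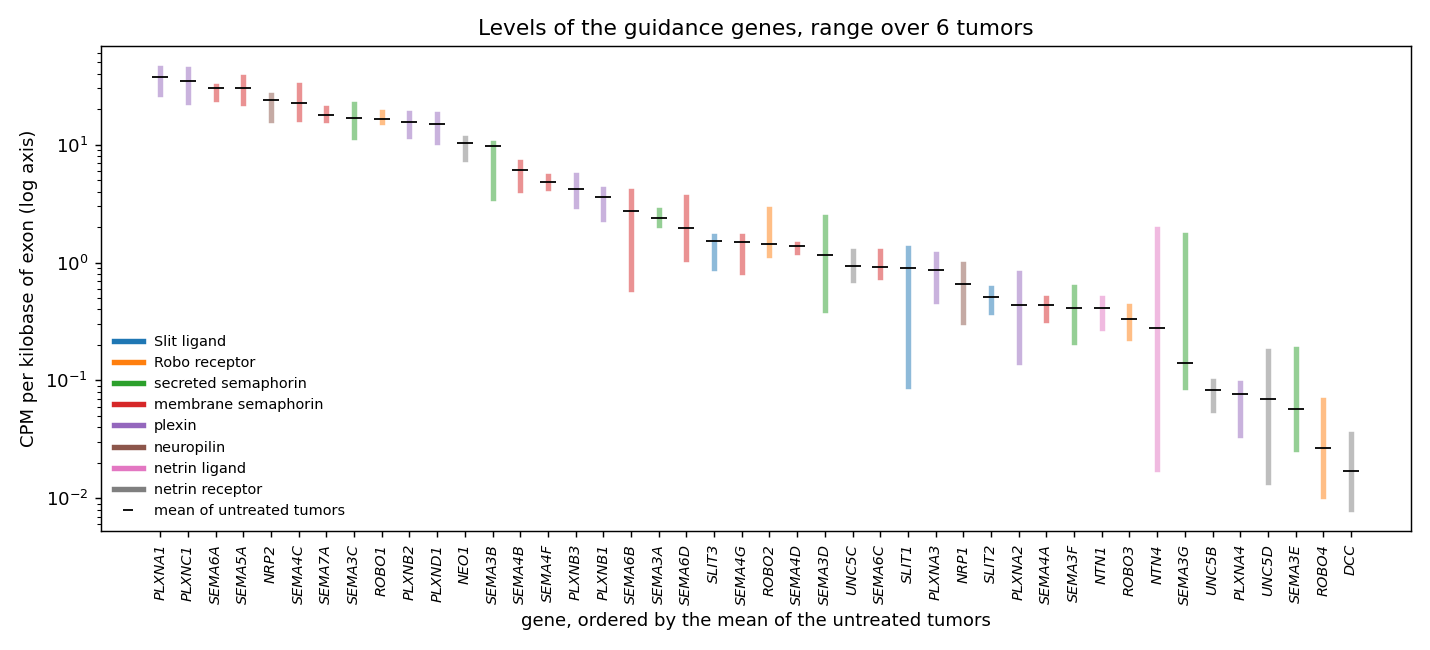
Level of each guidance gene in CPM per kilobase of exon on a log axis, ordered by the mean of the 3 untreated tumors (black dash), with a bar from the lowest to the highest of the 6 tumors. SEMA5B and UNC5A, with 0 counts in at least 1 tumor, are left out because a log axis cannot show them; PLXNA1 leads at 37.5, and the longest bars belong to NTN4, SEMA3G, SLIT1 and UNC5D.

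After anle138b, 3 guidance ligands fell and 1 receptor rose. SLIT1 fell 6.85-fold, the membrane semaphorin SEMA6B 3.22-fold and the secreted semaphorin SEMA3B 2.11-fold, while ROBO2 rose 1.70-fold. These 4 were called among the 38 members that passed the low-count filter, by edgeR's quasi-likelihood test with Benjamini-Hochberg adjustment over all 20423 genes tested and an adjusted p below 0.05. That is 10.5% of the members tested, beside 1.05% of all genes tested. Raised genes made up 0.656% and lowered genes 0.397% of all genes tested. The other 34 members tested did not pass, and 8 members did not reach the filter's level in enough tumors to be tested. The median log2 fold change (treated over untreated) of the tested members was -0.09, beside -0.01 over all genes, and 26 of the 38 had a value below 0, beside 52.1% of all genes.

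SLIT1 (ENSG00000187122, chromosome 10, 96998038 to 97185920 on the minus strand of GRCh38) encodes a secreted repellent best known from the nervous system. Values by tumor are given in the order of replicates 1, 2 and 3. SLIT1 was counted 24, 13 and 23 times in the treated tumors and 73, 162 and 185 times in the untreated tumors. On the depth-scaled level this was 1.84, 1.04 and 0.814 CPM in the treated tumors against 4.45, 12 and 7.85 CPM in the untreated tumors. Every treated tumor lay below every untreated tumor. How many of all genes tested separated the groups in this way was not counted, for SLIT1 or for the genes below. The log2 fold change was -2.78 ± 0.41 (SE, n = 3 per group; edgeR adjusted p = 0.0129), the lowest of all 20423 genes tested. The difference of log2 CPM was -2.31 within the 4-library set and -3.10 within the 2-library set. The other 2 Slits did not pass. SLIT3 had a log2 fold change of -0.32 ± 0.20 (edgeR adjusted p = 0.795) and SLIT2 one of -0.17 ± 0.22 (edgeR adjusted p = 0.941). In CPM per kilobase SLIT1 made up 20.9%, 38.0% and 29.6% of the 3 Slits together in the untreated tumors, and 10.9%, 5.45% and 5.87% in the treated tumors. SLIT3 was the most abundant Slit in every tumor. The antisense gene SLIT1-AS1, which overlaps SLIT1, had 0 counts in all 6 tumors. ARHGAP19-SLIT1, an overlapping protein-coding gene on the same strand, had 0 or 1 counts per tumor. How reads shared by SLIT1 and ARHGAP19-SLIT1 were assigned is not stated, so the level of SLIT1 beside the other Slits may be too low.

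ROBO2 (ENSG00000185008, chromosome 3, 75906695 to 77649964, plus strand) is a Slit receptor whose gene neighbours ROBO1, and it was the 1 member that rose. Its levels were 39.4, 33.9 and 47.7 CPM in the treated tumors and 20.0, 19.3 and 32.8 CPM in the untreated tumors. The groups did not overlap, and the highest untreated tumor, replicate 3, lay close to the lowest treated one. The log2 fold change was 0.77 ± 0.12 (SE, n = 3 per group; edgeR adjusted p = 0.0177), with differences of 0.89 and 0.54 in the 4-library and the 2-library set. ROBO1, the most abundant Robo, was at 190 to 204 CPM in the treated tumors and 171 to 189 CPM in the untreated tumors, with a log2 fold change of 0.13 ± 0.09 that did not pass (edgeR adjusted p = 0.852). ROBO3, a divergent Robo, had a value of -0.18 ± 0.22. The vascular receptor ROBO4 had 1 to 7 counts per tumor and was not tested. A processed pseudogene inside ROBO2 on the same strand, AC026877.1, had 278 to 636 counts per tumor and a log2 fold change of 0.50. How reads in such overlapping genes were assigned is not stated.

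**Figure D2:**
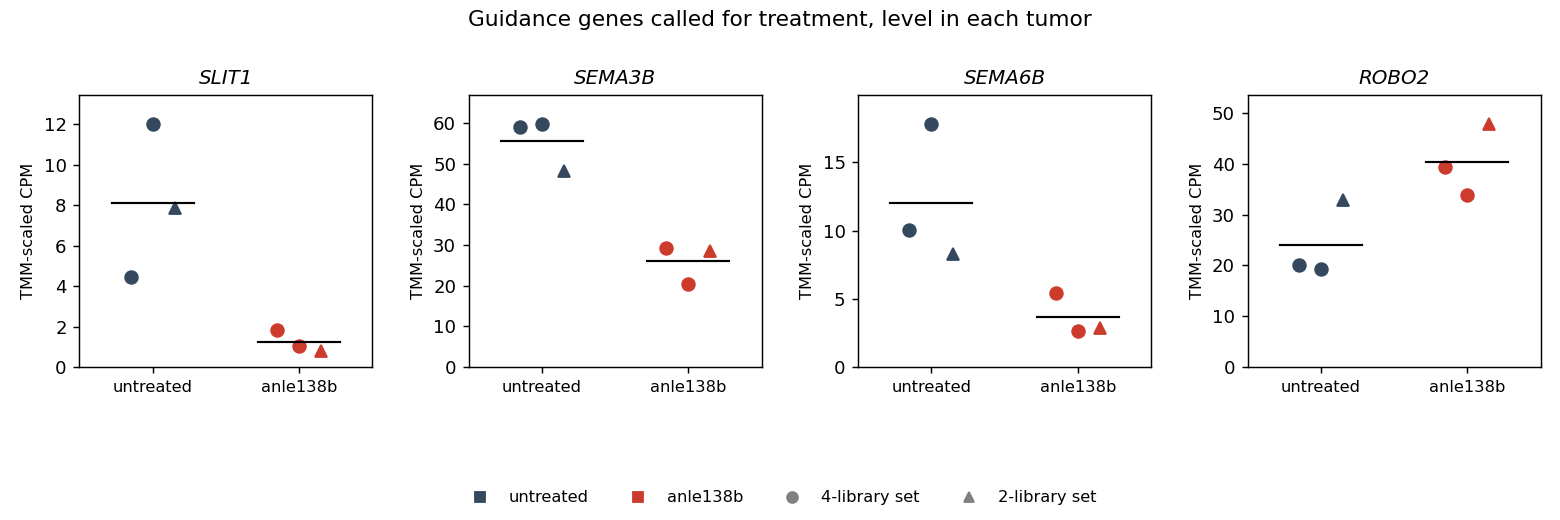
Level in TMM-scaled CPM (linear axes from 0) of the 4 guidance genes called for treatment, 1 point per tumor, with circles for the 4-library set, triangles for the 2-library set and a black line at each group's mean (n = 3). SLIT1, SEMA3B and SEMA6B lie lower in all 3 treated tumors than in all 3 untreated tumors, and ROBO2 lies higher.

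Of the 20 semaphorins, 18 were tested, 2 fell and 0 rose. SEMA3B (ENSG00000012171, chromosome 3, 50267558 to 50277546, plus strand), a secreted class 3 semaphorin from a chromosome region often lost in cancers, was at 29.3, 20.4 and 28.6 CPM in the treated tumors and 59.1, 59.6 and 48.3 CPM in the untreated tumors. The lowest untreated tumor stood well above the highest treated tumor. Its log2 fold change was -1.08 ± 0.15 (SE, n = 3 per group; edgeR adjusted p = 0.011), with differences of -1.27 in the 4-library set and -0.75 in the 2-library set. SEMA6B (ENSG00000167680, chromosome 19, 4542593 to 4559808, minus strand), a membrane semaphorin that binds PLXNA4, was at 5.43, 2.64 and 2.87 CPM in the treated tumors and 10.05, 17.8 and 8.32 CPM in the untreated tumors. Again the groups did not overlap. Its log2 fold change was -1.69 ± 0.29 (edgeR adjusted p = 0.026), and the differences were -1.79 and -1.50 in the 2 sets.

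The nearest relatives of these semaphorins did not pass. SEMA3F, which lies near SEMA3B on chromosome 3, had a log2 fold change of -0.08 ± 0.26. Among the SEMA6 genes, SEMA6A was at 294, 277 and 268 CPM in the treated tumors and 321, 337 and 343 CPM in the untreated tumors, with a log2 fold change of -0.25 ± 0.10 (edgeR adjusted p = 0.428). SEMA6C and SEMA6D had values of 0.26 ± 0.20 and -0.03 ± 0.15. The groups of SEMA6A did not overlap. A looser pattern, lower in the treated tumors with no overlap within either set, was shown by 10.4% of all genes tested.

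SEMA3D and SEMA3G had larger values that did not pass in the main fit. With no low-count filter both were called (edgeR adjusted p = 0.00689 and 1.1e-06). SEMA3G was also called without anle138b replicate 2 (edgeR adjusted p = 0.0302). SEMA3D, a class 3 semaphorin of the developing heart and neural crest, was at 3.29, 3.19 and 7.71 CPM in the treated tumors and 5.24, 3.41 and 19.5 CPM in the untreated tumors (log2 fold change -0.83 ± 0.25, n = 3 per group; edgeR adjusted p = 0.234). SEMA3G, known as an endothelial class 3 semaphorin, was counted 9, 13 and 242 times in the treated and 14, 6 and 19 times in the untreated tumors. A single tumor, anle138b replicate 3, held the high value. Its log2 fold change was 2.01 ± 0.59 (edgeR adjusted p = 0.22), and 0.37 without that tumor. The summed level of the 8 endothelial markers was 18.2 to 30.2 CPM in the treated tumors and 26.6 to 41.2 CPM in the untreated tumors. By set it was 18.2 to 26.6 CPM in the 2-library set and 28.4 to 41.2 CPM in the other. How reads from the host were handled was not given, and the part of endothelial cells in the SEMA3G value was not tested. SEMA4C, a membrane semaphorin that binds PLXNB2, was at 198, 163 and 138 CPM in the treated tumors and 149, 166 and 102 CPM in the untreated tumors (log2 fold change 0.28 ± 0.11, edgeR adjusted p = 0.503), and its groups overlapped. SEMA5A, with a mean level per kilobase near that of SEMA6A in the untreated tumors, had a log2 fold change of -0.10 ± 0.12. SEMA7A, a lipid-anchored ligand of PLXNC1, had one of 0.01 ± 0.11. The other tested semaphorins had log2 fold changes from -0.34 to 0.20.

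None of the 9 plexins and 2 neuropilins passed the test over all genes by edgeR. An unadjusted p below 0.05 was reached by 4 plexins (44.4%) and NRP2, beside 8.49% of all genes tested. PLXNC1 came closest. It was at 231, 228 and 251 CPM in the treated tumors and 291, 311 and 435 CPM in the untreated tumors, with no overlap (log2 fold change -0.53 ± 0.11, n = 3 per group; edgeR adjusted p = 0.0667). By the DESeq2 Wald test, which called 2.44% of its genes, PLXNC1 and NRP2 were lowered as well (adjusted p = 0.00367 and 0.0321). By edgeR PLXNC1 was called with upper-quartile scaling (adjusted p = 0.0443), with library size alone (0.0279), with no low-count filter (5.2e-05) and without anle138b replicate 2 (0.0409). With no low-count filter edgeR also called NRP2 (adjusted p = 0.0043) and PLXNA3 (0.0286). NRP2 was at 223, 253 and 265 CPM in the treated tumors and 329, 299 and 363 CPM in the untreated tumors (log2 fold change -0.42 ± 0.10, edgeR adjusted p = 0.112), again without overlap. PLXNA3, a receptor partner of neuropilins, was at 6.19, 5.51 and 7.04 CPM against 7.98, 8.67 and 13.7 CPM (log2 fold change -0.68 ± 0.17, edgeR adjusted p = 0.128). PLXNA2, a receptor of SEMA6A, was at 1.99, 2.88 and 7.64 CPM against 3.84, 3.11 and 11.2 CPM (log2 fold change -0.54 ± 0.20, edgeR adjusted p = 0.428). For PLXNA2 the treated tumor was lower within each set, but the 2-library tumors lay far above the other 4. PLXND1, the vascular receptor of SEMA3E, was at 136, 112 and 103 CPM against 134, 178 and 123 CPM (log2 fold change -0.30 ± 0.13, edgeR adjusted p = 0.527) and its groups overlapped. PLXNA1 and the B plexins PLXNB1, PLXNB2 and PLXNB3, receptors of class 4 and 5 semaphorins, had log2 fold changes of -0.23, 0.16, -0.05 and 0.07.

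Netrin genes showed no call by edgeR. NEO1, the receptor neogenin, was at 61.7, 69.1 and 79.0 CPM in the treated tumors and 78.2, 83.8 and 91.7 CPM in the untreated tumors. The difference was small and ran the same way within each set (log2 fold change -0.28 ± 0.10, n = 3 per group; edgeR adjusted p = 0.356). UNC5C, a receptor for repulsion, had a log2 fold change of 0.17 ± 0.15 and NTN1, the founding netrin, one of -0.04 ± 0.28 at 1.76 to 3.17 CPM. The receptors DCC, UNC5A, UNC5B and UNC5D were under the filter, with at most 6, 3, 18 and 45 counts in a tumor.

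Counted without a test, 14 of the 38 members (36.8%) were lower in the treated tumors with no overlap within either set, beside 10.4% of all genes tested, and 2 (5.26%) were higher, beside 9.52%. The 2 were ROBO1 and ROBO2. The 14 were SLIT1, ROBO3, SEMA3B, SEMA3D, SEMA4A, SEMA4G, SEMA6A, SEMA6B, PLXNA2, PLXNA3, PLXNA4, PLXNC1, NRP2 and NEO1. The 2-library set has 1 tumor per group, so no overlap there means only that 1 value lay below the other. The count takes no account of size: for SEMA4A the differences of log2 CPM were -0.08 in the 4-library and -0.01 in the 2-library set. An unadjusted p below 0.05 was reached by 14 members (36.8%), beside 8.49% of all genes. Of these members 11 were lower and 3 higher, beside 5.06% and 3.43% of all genes. Summed over all 46 members, the level was 2515 to 2722 CPM in the treated tumors and 2856 to 3212 CPM in the untreated tumors. Such a sum follows mainly the most abundant members. PLXNA1, SEMA5A, PLXNC1, SEMA6A and NRP2 averaged 410, 366, 345, 334 and 330 CPM in the untreated tumors, and none of them was called in the main fit. The sum for the plexins was 781 to 950 against 1004 to 1203 CPM, and that for the neuropilins 228 to 276 against 303 to 374 CPM.

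**Figure D3:**
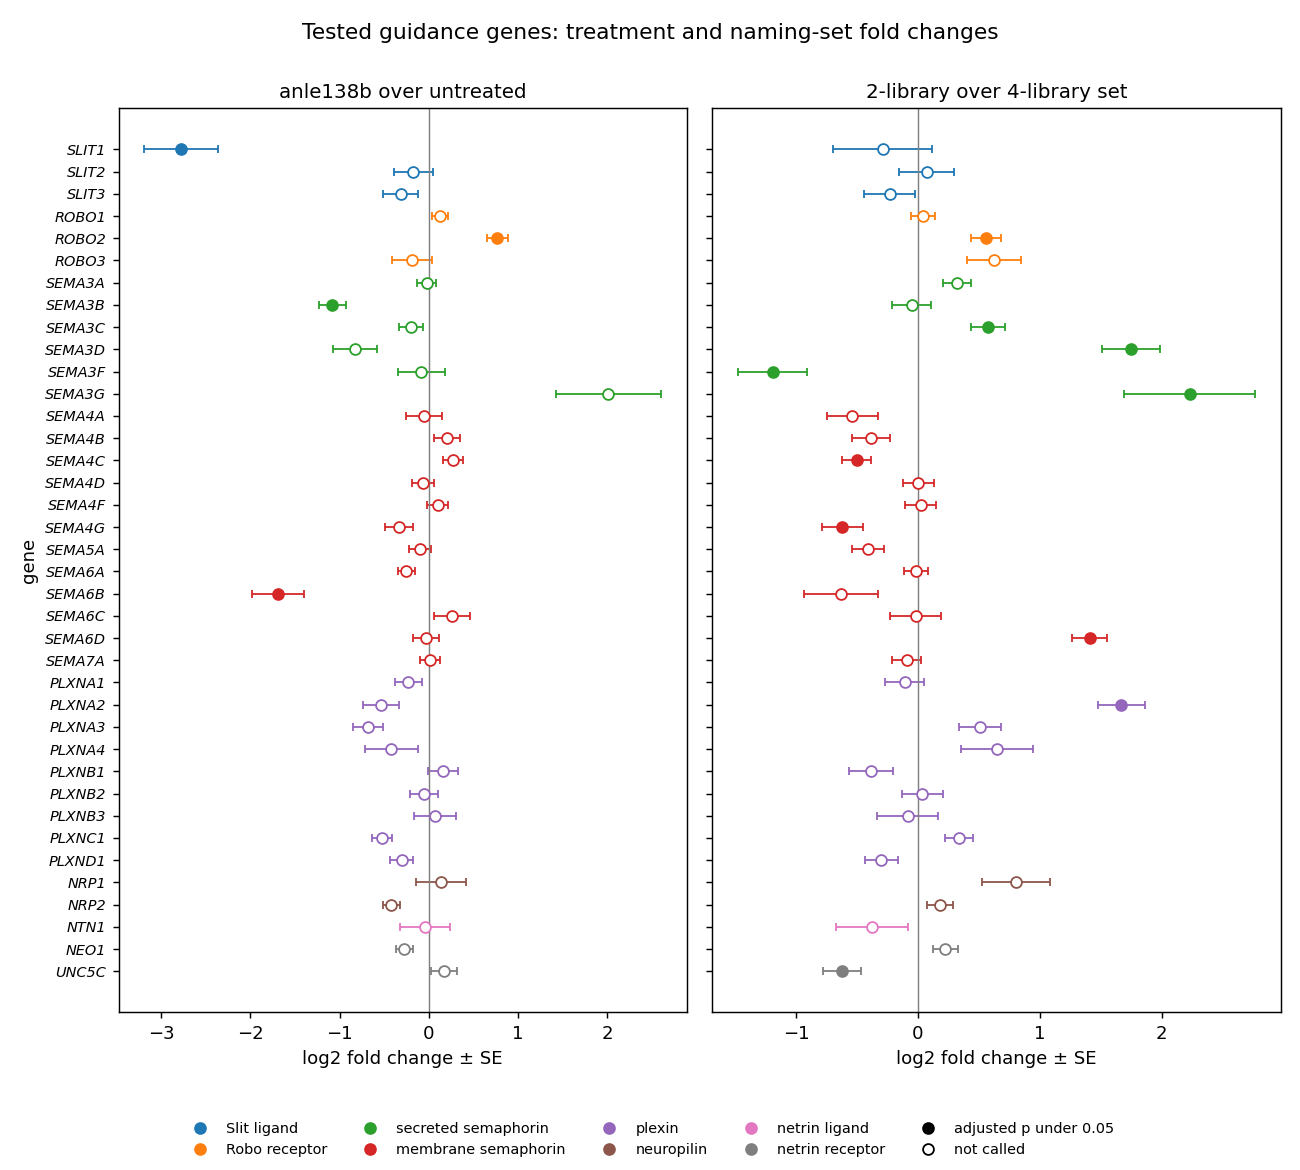
Log2 fold change with its standard error for each of the 38 tested guidance genes, for treatment (left) and for naming set (right), coloured by family, with filled points for an adjusted p below 0.05. On the left SLIT1, SEMA6B and SEMA3B lie at -2.78, -1.69 and -1.08 and ROBO2 at 0.77; on the right 6 genes are called as higher and 4 as lower in the 2-library set.

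The 4 calls rest on a fit with a term for the naming set. Without that term 0 members and 0.0441% of all genes were called. An unadjusted p below 0.05 (edgeR) was then reached by 9 of the 38 members tested, beside 800 of the 20423 genes tested. The adjusted p was then 0.129 for SEMA3B, 0.164 for SLIT1, 0.412 for SEMA6B and 0.791 for ROBO2 (edgeR), although each kept its direction in that fit and in every other alternative run. In the 4-library set alone, where 0.457% of all genes were called, SLIT1 and SEMA6B did not pass (edgeR adjusted p = 0.0833 and 0.0786), nor did they without either library of the 2-library set (0.0618 to 0.0888). With no low-count filter 9 members were called, beside 1.62% of all genes then tested. The calls of ROBO2 were lost without anle138b replicate 1 (edgeR adjusted p = 0.0994) and without untreated replicate 1 or 2 (0.0885 and 0.0682), that of SEMA3B without untreated replicate 1 (0.0698), and that of SEMA6B without untreated replicate 2 (0.0646).

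To show the sequence at RefSeq starts of the genes that changed, the windows from 250 bases before to 50 bases after the RefSeq start (GRCh38.p14) were read for the called members. Of the 46 members 39 had such a window, and SEMA6B was not among them. Both strands were searched for CACGTG, the E-box form bound by MITF and its relatives, CAGGTG, the form bound by Snail and ZEB repressors, and GCGTG, the core of the aryl hydrocarbon receptor element. Matches are in capitals, and each window is written 5′ to 3′ on the gene's strand. The SLIT1 window (chr10:97185910-97186209, minus strand) starts from a site 39 bases from the GENCODE gene boundary, is 68% G and C and holds 27 CpG dinucleotides. The SEMA3B window (chr3:50272869-50273168, plus strand) has 57.7% G and C, and its start lies 5561 bases inside the GENCODE gene. The ROBO2 window (chr3:76310630-76310929, plus strand) has 46.7% G and C, and its start lies 404185 bases inside the GENCODE gene.
SLIT1: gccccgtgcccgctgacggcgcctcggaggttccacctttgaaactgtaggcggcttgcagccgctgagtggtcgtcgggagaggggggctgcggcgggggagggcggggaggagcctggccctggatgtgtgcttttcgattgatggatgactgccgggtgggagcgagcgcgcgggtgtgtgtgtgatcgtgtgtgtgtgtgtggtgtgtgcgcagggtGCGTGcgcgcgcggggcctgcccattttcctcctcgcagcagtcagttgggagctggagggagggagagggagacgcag
SEMA3B: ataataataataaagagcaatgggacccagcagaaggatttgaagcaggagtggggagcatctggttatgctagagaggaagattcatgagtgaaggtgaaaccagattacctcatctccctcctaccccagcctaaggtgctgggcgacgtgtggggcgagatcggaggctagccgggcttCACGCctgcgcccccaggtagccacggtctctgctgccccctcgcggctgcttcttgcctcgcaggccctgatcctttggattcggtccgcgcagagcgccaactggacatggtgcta
ROBO2: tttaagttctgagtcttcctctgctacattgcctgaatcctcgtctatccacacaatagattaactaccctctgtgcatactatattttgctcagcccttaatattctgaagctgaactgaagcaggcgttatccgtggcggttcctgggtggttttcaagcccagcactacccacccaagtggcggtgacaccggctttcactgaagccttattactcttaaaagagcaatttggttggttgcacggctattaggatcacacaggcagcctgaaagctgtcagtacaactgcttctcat
SLIT1 and SEMA3B each hold 1 GCGTG match, which 36.5% of all 35116 windows of this length hold, and ROBO2 holds none. CACGTG and CAGGTG, held by 7.26% and 20.6% of all windows, match in none of the 3. Over the 39 members with a window, 33.3% hold GCGTG, 7.69% CACGTG and 15.4% CAGGTG. A match is a string of letters and does not show binding.

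Guidance genes also differed between the naming sets, within the same fit and with treatment as the other term. Of the 38 tested members 10 were called (26.3%), 6 higher and 4 lower in the 2-library set, beside 15.5% of all genes tested. Genes called as higher made up 8.32% and those called as lower 7.14% of all genes. The split of the members was 8 higher and 2 lower with library size alone, 6 and 0 without anle138b replicate 1, and 5 and 0 without untreated replicate 3. The labels do not say what the sets are. An unadjusted p below 0.05 was reached by 19 members, beside 32.1% of all genes. Both tumors of the 2-library set lay above the other 4 in 8 members (21.1%) and below them in 7 (18.4%), beside 19% and 19.4% of all genes. With no low-count filter 18 members were called, beside 13.4% of all genes then tested. SEMA3D was at 7.71 and 19.5 CPM in the 2 tumors of the 2-library set and at 3.19 to 5.24 CPM in the other 4 (log2 fold change 1.75 ± 0.24; edgeR adjusted p = 0.00152). PLXNA2 was at 7.64 and 11.2 CPM against 1.99 to 3.84 CPM (1.67 ± 0.20; edgeR adjusted p = 0.000638). SEMA6D, a membrane semaphorin that binds PLXNA1, was at 25.4 and 30.6 CPM against 9.19 to 11.7 CPM (1.41 ± 0.14; edgeR adjusted p = 0.000286). In these 3 genes both tumors of the 2-library set lay above the other 4, and the call held in every alternative run. SEMA3C, a class 3 semaphorin studied in tumor spread, was at 137 and 116 CPM against 72.8 to 99.8 CPM (0.57 ± 0.14; edgeR adjusted p = 0.0259). Its call was lost without anle138b replicate 3 (0.23, edgeR adjusted p = 0.315) and without anle138b replicate 1 (edgeR adjusted p = 0.0956). ROBO2 was called as higher in the 2-library set as well (0.56 ± 0.12, edgeR adjusted p = 0.0172). Its sets overlapped, at 47.7 and 32.8 CPM against 19.3 to 39.4 CPM, and this call was not followed gene by gene through the alternatives. The call of SEMA3G (2.23 ± 0.53, edgeR adjusted p = 0.0238) again rests on anle138b replicate 3, as its value was 0.28 without that tumor and 3.32 without untreated replicate 3. It was also lost without anle138b replicate 1 (edgeR adjusted p = 0.0876).

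Lower in the 2-library set were SEMA3F, UNC5C, SEMA4G and SEMA4C. SEMA3F, a secreted repellent that acts through NRP2, was at 1.06 and 1.02 CPM against 2.00 to 2.98 CPM (log2 fold change -1.19 ± 0.28; edgeR adjusted p = 0.0231). UNC5C was at 8.17 and 7.55 CPM against 10 to 13.4 CPM (-0.62 ± 0.16; edgeR adjusted p = 0.0292). In SEMA4G, at 4.35 and 6.11 against 7.19 to 8.74 CPM, the value was -0.62 ± 0.17 (edgeR adjusted p = 0.0372), and in SEMA4C, at 138 and 102 against 149 to 198 CPM, -0.50 ± 0.12 (edgeR adjusted p = 0.0238). The 2 sets did not overlap in any of these 4 genes, a pattern that 19.4% of all genes tested showed in this direction. Each of these calls was lost without untreated replicate 3, with edgeR adjusted p from 0.151 to 0.244, and without anle138b replicate 1, with 0.0548 to 0.0874. SEMA4G was not called in 7 of 13 alternatives, among them upper-quartile scaling (edgeR adjusted p = 0.0598) and library size alone (0.0742). UNC5C was not called in 5 of 13, among them library size alone (edgeR adjusted p = 0.0635), SEMA3F in 4 of 12 and SEMA4C in 2 of 13. SEMA4G overlaps MRPL43, a gene of 705 to 1609 counts per tumor that runs the other way. The libraries keep no strand information, and reads of SEMA4G and MRPL43 cannot be told apart where they overlap. SEMA3F overlaps the antisense gene SEMA3F-AS1, at 45 to 88 counts per tumor, in the same way. Beside these set differences, the summed level of 8 fibroblast and pericyte markers was 461 to 612 CPM in the 2-library set and 216 to 348 CPM in the other, and that of 8 skeletal muscle markers 17.5 to 18.5 against 31.1 to 74.8 CPM. Their part in the set differences was not tested.

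**Figure D4:**
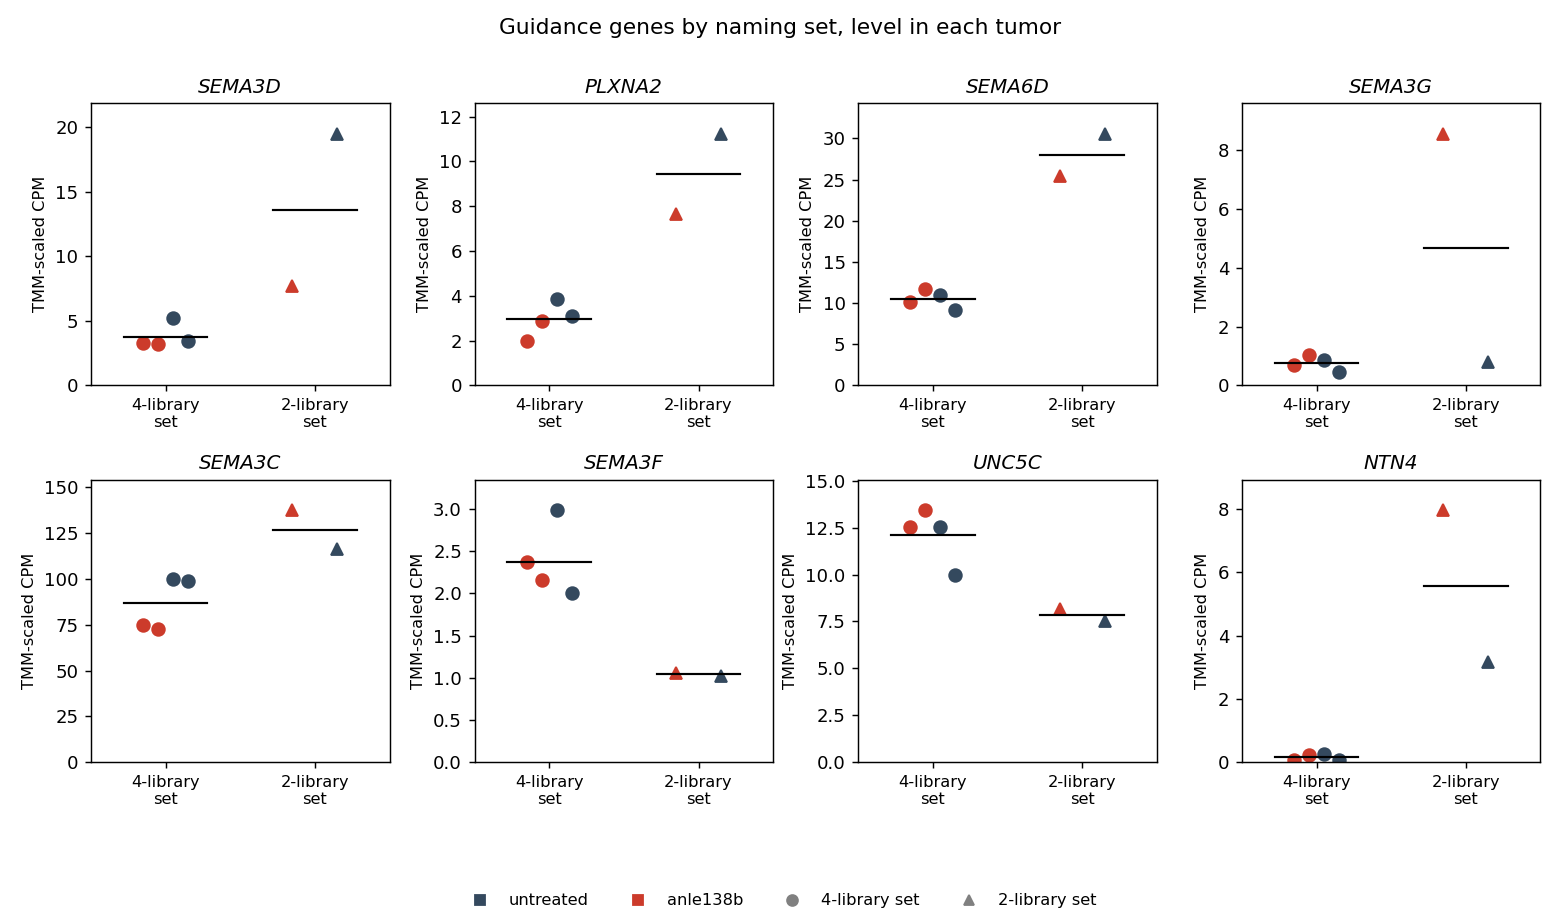
Level in TMM-scaled CPM (linear axes from 0) of 8 guidance genes by naming set, 1 point per tumor, with red for anle138b, blue-grey for untreated and a black line at the mean of each set (4 and 2 tumors). SEMA3D, PLXNA2, SEMA6D and SEMA3C lie higher in both tumors of the 2-library set, SEMA3F and UNC5C lie lower, the high SEMA3G value is a single treated tumor at 8.56 CPM, and NTN4, which was not tested, is at 7.96 and 3.18 CPM against at most 0.244 CPM.

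Whether the response to anle138b differed between the sets was tested with an interaction term, which leaves 2 residual degrees of freedom. By edgeR 0 genes were called and 1345 (6.59%) had an unadjusted p below 0.05; DESeq2 called 31 genes (0.158%, with 3.3% at an unadjusted p below 0.05) and limma voom 0 (7.61% unadjusted). By each of the 3 tools 0 guidance genes were called. By edgeR an unadjusted p below 0.05 was seen for 6 of the 38 members (15.8%). In SEMA3G the treated tumors exceeded the untreated ones by 0.39 on the log2 CPM scale in the 4-library set and by 3.24 in the 2-library set. PLXNB1, SEMA4B and SEMA3C had differences of opposite sign in the sets, -0.13 and 0.72, -0.04 and 0.68, and -0.42 and 0.24. SLIT3 and SEMA3D were the other 2, with -0.04 and -0.82, and -0.37 and -1.33. None passed after adjustment (edgeR adjusted p from 0.489 to 0.749).

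The partners of these families were read from 4 further lists. Of 20 co-receptors and binding partners 16 were tested, 1 fell (6.25%) and 0 rose, beside 1.05% of all genes called and 0.397% lowered. The 1 was MET, the receptor tyrosine kinase that plexins of the B class associate with, at 104, 110 and 70.1 CPM in the treated tumors and 143, 178 and 162 CPM in the untreated tumors. No treated tumor reached the untreated range (log2 fold change -0.80 ± 0.14, n = 3 per group; edgeR adjusted p = 0.0356). Of 54 cytoplasmic effectors 49 were tested, 1 rose (2.04%) and 0 fell, beside 1.05% of all genes called. ROCK2, a kinase that drives actomyosin contraction downstream of repellent cues, was at 271, 298 and 323 CPM in the treated tumors and 193, 170 and 224 CPM in the untreated tumors, without overlap (log2 fold change 0.61 ± 0.10; edgeR adjusted p = 0.0226). The call of MET was lost without anle138b replicate 1 or 3 or untreated replicate 2 or 3 (edgeR adjusted p from 0.103 to 0.185), and that of ROCK2 without any single tumor but anle138b replicate 2 (edgeR adjusted p from 0.0588 to 0.0987). Neither was called without the set term.

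None of 11 tested other ligands and none of 19 tested ephrins and Eph receptors, a separate family of contact guidance cues, passed over all genes by edgeR, with 2 in each list at an unadjusted p below 0.05 (18.2% and 10.5%), beside 8.49% of all genes. FLRT3, a ligand of UNC5 receptors, had a log2 fold change of 0.36 ± 0.12 and the membrane-anchored netrin NTNG1 one of -0.92 ± 0.38. EPHA3 and EPHA7 had values of 0.38 ± 0.12 and 0.72 ± 0.27. The median log2 fold changes of the 4 lists were -0.20 for other ligands, 0.14 for co-receptors, 0.00 for effectors and 0.06 for ephrins and Eph receptors.

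Guidance receptors are also used by vessels and nerves, so markers of other cell types were read beside the treatment results. By edgeR none of the tested markers was called for treatment: 0 of 5 endothelial, 0 of 8 fibroblast and pericyte, 0 of 4 myeloid, 0 of 1 lymphocyte, 0 of 7 neuron and Schwann cell, 0 of 2 keratinocyte and 0 of 4 skeletal muscle genes, with an unadjusted p below 0.05 for 2 endothelial genes and 0 of the rest. Of the 8 melanoma markers 0 were called by edgeR, with log2 fold changes from -0.46 to 1.42. An unadjusted p below 0.05 was reached by 4 of them (50%), 3 higher and 1 lower, beside 8.49% of all genes. The 8 neuron and Schwann cell markers summed to 404 to 418 CPM in the treated and 366 to 453 CPM in the untreated tumors. RBFOX3 and STMN2, 2 low genes of this list chosen after their values were seen, were at no more than 1.53 and 0.354 CPM. Other genes of the list thus made up nearly all of the sum. Of its 7 tested genes 3 (42.9%) were higher in the treated tumors with no overlap within either set, and 0 were lower. Over all genes 9.52% were higher in this way. Fibroblast and pericyte markers summed to 216 to 612 against 266 to 461 CPM, and skeletal muscle markers to 17.5 to 74.8 against 18.5 to 42.6 CPM. These sums overlapped between treated and untreated tumors, and the endothelial genes VWF and TIE1, chosen after their values were seen, had log2 fold changes of -0.60 ± 0.25 and -0.52 ± 0.11 (edgeR adjusted p = 0.527 and 0.0692). They are the lowest of the 5 tested endothelial markers, of which 2 lay above 0, with a median of -0.16 and a highest value of 0.20. The part of such cells in the changes of SLIT1, SEMA3B, SEMA6B and ROBO2 was not tested.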

How the data were processed

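Per the labels' protocols, Trizol was used for RNA and TruSeq RNA v2, an unstranded kit, for libraries. Each deposited file lists whole-number counts for 1 tumor, not normalized. Per the submitters' processing notes, reads were handled with featureCounts 1.5.0-p1, with STAR 2.5.2a and with bcl2fastq 2.17.1.14, and the build was hg38. The annotation release, strand setting and handling of multiply mapped and mouse reads are not named in these sources. Symbols, positions and exon lengths came from GENCODE release 29 (GRCh38), which held 58542 of the 60617 identifiers.

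The tests were run in R 4.3.3 by edgeR 4.0.16. Genes passed filterByExpr by group (minimum count 10, minimum total 15), and TMM factors scaled the libraries. Treatment and naming set were terms of a quasi-likelihood F test that left 3 degrees of freedom, with Benjamini-Hochberg adjusted p read at 0.05. Standard errors were derived from the F statistic. Levels are CPM after TMM, with a prior count of 2 where logged. DESeq2 1.42.0 and limma 3.58.1 were alternatives, as were no set term, other scalings, other filters, the 4-library set alone and leaving out each tumor. A chi-square comparison of replicates within each group gave 8.97 to 49.7 per degree of freedom, so no library was a copy of another of its group. Treated and untreated libraries were not compared in this way. Replicate numbers follow listing order and pair no tumors. On simulated counts for the treatment comparison of 20003 genes the fit recovered 22% of those changed by 0.5 (log2), 92% at 1, 100% at 2 and 100% at 3, and 10.8% of its calls were false, more than the threshold allows for.

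The members and lists were chosen with earlier results of these data known. Values in every tumor were given for the called members and those with the smallest treatment p up to 14, and for called members with the 5 highest and 5 lowest fold changes between sets. Of each pathway list the called genes, or otherwise the 2 with the smallest p, were named. Other genes named were chosen after their values were seen.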

Additional observations from a re-analysis of the deposited data

How the results depend on the processing

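Among all genes, 215 were called for treatment, against 9 with no naming-set term, 754 with no low-count filter, 412 by DESeq2, 92 in the 4-library set alone and 89 to 392 when 1 tumor was left out. The 4 guidance genes became 0 with no set term, 9 with no low-count filter, 2 in the 4-library set alone and 2 to 6 when 1 tumor was left out (2 without untreated replicate 1, 2 or 3 or anle138b replicate 3). For the naming sets, 3157 genes and 10 guidance genes became 6250 and 18 with no low-count filter, and 993 to 5960 and 5 to 19 when 1 tumor was left out: guidance genes numbered 6 without anle138b replicate 1, 19 without anle138b replicate 2 and 5 without untreated replicate 3. Library size alone moved the naming-set split of called genes from 1699 higher and 1458 lower to 2244 higher and 1242 lower. The interaction gave 0 genes by edgeR and limma and 31 by DESeq2; both of those checks were added after seeing the data. Of the genes with alternatives run, 20 for treatment and 9 for naming set, none changed direction. Leaving out replicate 3 of either group leaves only the 4-library set to inform treatment, so these repeat 1 check. The cause of these shifts was not tested. No paired analysis was possible because replicate numbers follow listing order and pair no tumors.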

Other observations

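Of the 8 members under the low-count filter, 3 had a higher CPM in both tumors of the 2-library set than in the other 4. They were chosen after their values were seen. NTN4, a netrin of basement membranes that binds laminins, was counted 225 times in anle138b replicate 3 and 75 times in untreated replicate 3, against 1 to 4 times in the 4-library set. The neuronal netrin receptor UNC5D was counted 20 and 45 times in the same 2 tumors, against 2 to 4 times elsewhere, and SEMA3E, the ligand of PLXND1, 44 and 19 times against 3 to 7 times. NTN4 and SEMA3E were higher in the treated tumor of that set and UNC5D was higher in the untreated tumor. These are values of single libraries. The filter asks for the minimum level in 3 libraries, so a gene present only in a set of 2 cannot pass it.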
